A study of Xenopus laevis with 2 samples.

Results

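The genes described here are the Hox genes, the caudal genes cdx1 and cdx4, and the TALE homeobox genes meis1, meis2, meis3, pbx2 and pknox1 of Xenopus laevis. They were chosen by symbol. Every probe set whose single platform gene symbol, without the homeolog suffix, was a Hox gene of cluster A to D, or a Cdx, Meis, Pbx or Pknox gene, was taken, dim ones included. This gave 38 of the 15491 probe sets that are not array controls. They name 29 of the 7531 genes named by a single symbol, with 28 probe sets for 21 Hox genes, 3 for 2 Cdx genes and 7 for 6 TALE genes, where each homeolog is counted as a gene. Xenopus laevis is allotetraploid, and .L and .S mark the copies on its long and short subgenomes.

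Hox genes encode homeodomain transcription factors that give cells their position along the head to tail axis. They lie in clusters, and within a cluster the genes of low paralogous group are used from more anterior levels and those of high group only near the tail. Cdx factors act upstream of trunk Hox genes and carry Wnt and FGF signals to them. The TALE factors bind DNA with Hox proteins: Pbx proteins pair with Hox proteins through a short peptide, and Meis and Pknox proteins bind Pbx. In the frog neurula these genes are active in the posterior neural plate as well as in the mesoderm beneath it.

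RNA came from dorsal posterior pieces cut from stage 18 neurulae, which the labels call mostly mesoderm, and was read on 1 Affymetrix array for each condition. By its title one array is wildtype. The other, titled Derriere depleted and called the array labelled depleted from here on, came from embryos that received 2 ng of a morpholino, an antisense oligonucleotide, against Derriere (gdf3, a TGF-beta family ligand) together with GFP in both dorsal blastomeres at the 4-cell stage, so the injection was aimed at the dorsal side. The labels do not say whether the wildtype embryos were injected or how many embryos went into each array. The genotype field of both samples holds no entry. With 1 array a group nothing below has a replicate check, no p-value is given, and the number of arrays limits the precision. In pieces of tissue, fewer cells of a type and less RNA per cell cannot be told apart.

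The morpholino target itself was higher in the array labelled depleted. gdf3.S read 552.0 in the wildtype array and 2318.6 in the array labelled depleted. A morpholino need not lower the RNA it targets, so this reading does not settle the labels. All directions below are those of the array labelled depleted over the wildtype array and exchanged labels would reverse every one of them. Median signals were 75.4 and 74.1.

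The level of the tissue along the axis was checked with position markers. Of 26 probe sets of forebrain and midbrain genes, 16 lay at or under 19.7 in both arrays, the floor set at the 25th percentile of all signals. They include all 10 of otx2, en2, rax and hesx1. Above the median signal were 3 probe sets of this list: emx2.L read 85.4 and 65.6, and those of pax2.L, a gene also used in the kidney and spinal cord, read 89.6 and 80.0, and 84.2 and 86.7. The single probe set of egr2.L, a gene of hindbrain segments, read 2.5 and 7.5 and was also under the floor. The T-box gene tbxt.S, a marker of the tail end, read 1039.0 and 1165.1, and msgn1.L, a gene of presomitic mesoderm, read 1149.5 and 1341.4. Neural markers were present beside them: sox3.S, a gene of neural progenitors, read 493.8 and 565.6, and sox2.L read 573.6 and 380.0. The pieces thus carried markers of both tissues in which Hox genes are used.

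Array coverage of the family was partial. The Xenopus_laevis_v10.1 gene table holds 75 genes with names of these families, and 27 of them had a member probe set by Entrez ID. Coverage was 19 of 56 Hox genes, 2 of 6 Cdx genes and 6 of 13 TALE genes. It was even between the subgenomes, with 9 of 27 Hox genes of the long and 10 of 29 of the short one. Paralogous group 1 had 0 of its 6 annotated genes on the array under these symbols. The probe sets named hoxb9 and hoxd9 carry no homeolog suffix and did not match a gene of the table.

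Of the 38 probe sets, 14 had a mean signal at or above 75, the median of all probe sets, and are called bright. Another 20 were dim but above the floor in at least 1 array, and 4 were at or under the floor in both, where no ratio is given. Among the Hox probe sets 9 of 28 were bright, 16 dim and 3 at the floor. All 3 Cdx probe sets were bright, and 2 of the 7 TALE probe sets were. Signals are in arbitrary units and depend on the probes, so a signal ranks no gene above another. The threshold divided hoxd10.L, with a mean signal of 82.8, from hoxc10.L, with 74.7.

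**Figure D1:**
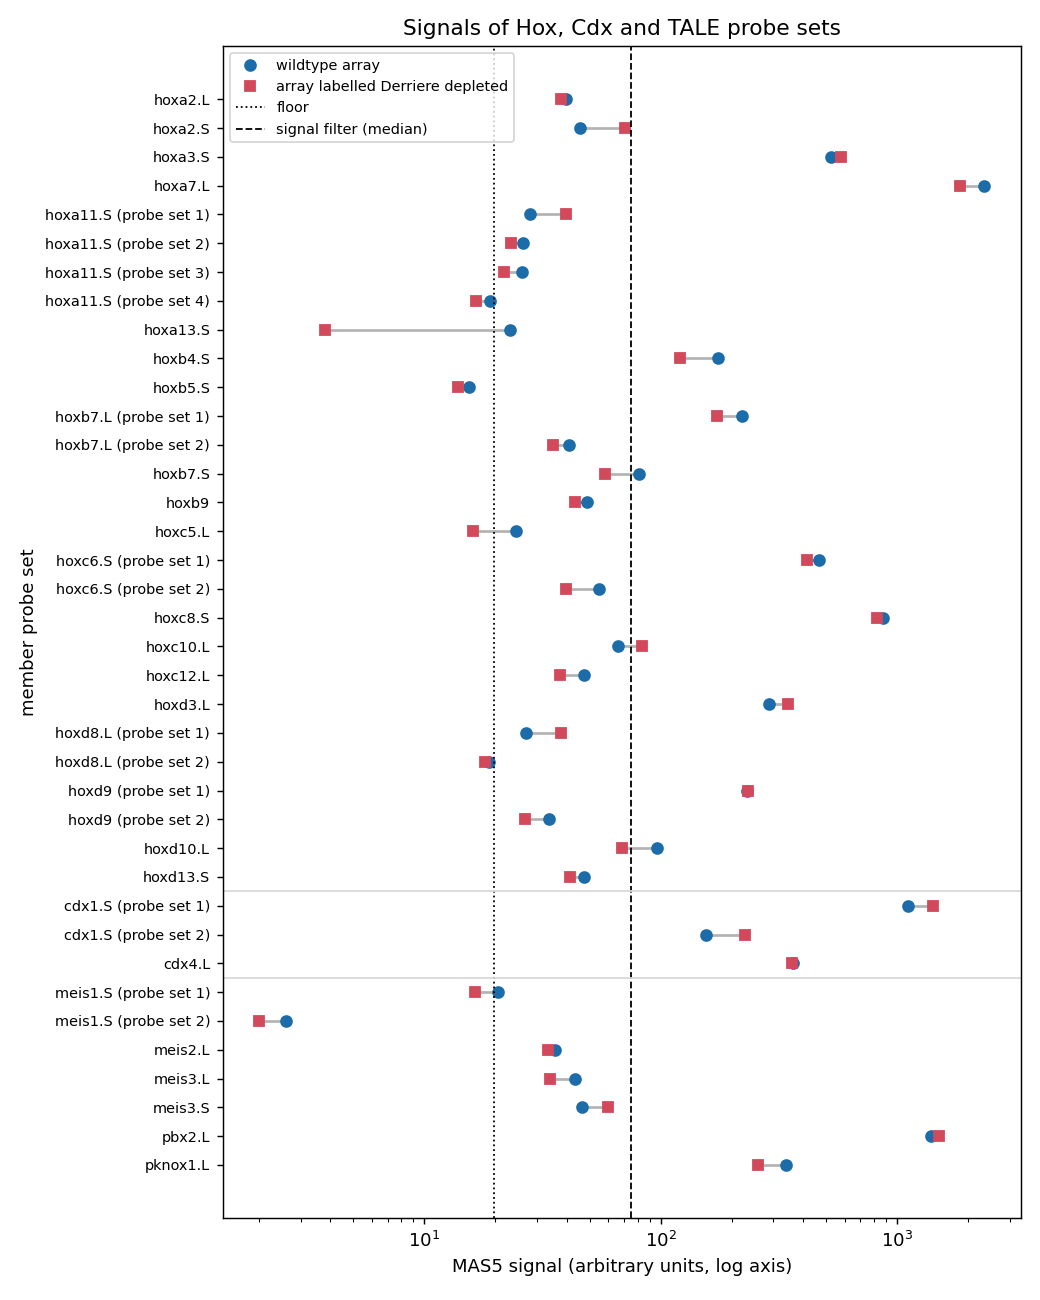
MAS5 signal of each of the 38 member probe sets on a log axis, with the wildtype array as circles and the array labelled depleted as squares, and Hox genes ordered by cluster and paralogous group above Cdx and TALE genes. The dotted line is the floor of 19.7 and the dashed line the filter of 75. In most rows the symbols lie close together, and the widest gap, at hoxa13.S, has its lower reading under the floor.

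No ratio with both readings above the floor reached 2-fold. A further 3 members with 1 reading at the floor have only a lower bound, and 4 have no ratio. Among the 14 bright probe sets 0 were 2-fold higher and 0 were 2-fold lower, where 0.349% of all 7747 bright probe sets were higher and 0.271% lower. Among the 34 members above the floor in at least 1 array, with readings under it raised to it, the counts were again 0 and 0, against a background of 0.446% and 0.685%. At these rates a group of 34 would usually hold no such probe set, so the zero counts say little about the members. At the smaller size of 1.5-fold 0 of the 14 bright members were past it in either direction, where 2.52% of all bright probe sets were higher and 3.38% lower. The only measured ratio past 1.5-fold was that of the dim hoxa2.S, which was higher, where 4.87% of all 4374 dim probe sets were.

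The members' ratios are best read against the spread of this pair of arrays. Repeated probe sets for a gene, which read the same RNA, differed in their log2 ratio with a pooled SD of 0.23 over 580 genes with bright probe sets and 0.39 over 162 genes with dim ones. This SD, called the technical SD below, covers differences between probe sets of a gene on the same pair of arrays. It leaves out the spread between embryos and any handling difference between the arrays that those probe sets share. A ratio beyond it is therefore no test of the condition. The log2 ratios of all 7747 bright probe sets had an SD of 0.33, larger than the technical SD. A ratio beyond the technical SD thus does not set a member apart from other probe sets. The bright probe sets were divided by signal into 4 equal bins. Of the 14 bright members 1 lay above the 95th percentile of its bin, the dimmer probe set of cdx1.S. Below the 5th lay 0, although hoxb4.S was at that limit. The dim probe sets as a whole had a median log2 ratio of -0.09, so negative values of dim members start from that level. Of the 20 dim members 15 were below 0 and 5 above, where 60.1% and 39.9% of all dim probe sets were.

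**Figure D2:**
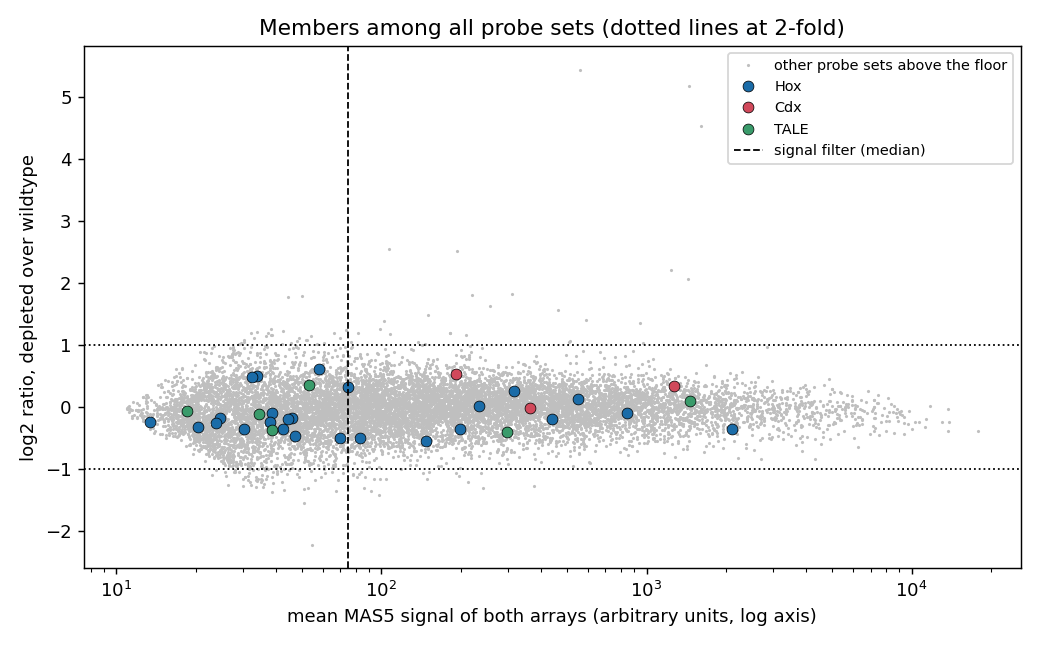
Log2 ratio of the array labelled depleted over the wildtype array against mean MAS5 signal on a log axis for all probe sets above the floor in at least 1 array, in grey, with Hox, Cdx and TALE members in colour. With readings under the floor raised to it, the 34 members shown lie between the dotted lines at 2-fold, within the cloud of the other probe sets.

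Along the Hox order, the bright probe sets of group 3 read higher in the array labelled depleted and most of those of groups 4 to 10 read lower. The 2 bright probe sets of group 3 had log2 ratios above 0, and 6 of the 7 bright probe sets of groups 4 to 10 were below 0, where 50% of all bright probe sets lie on each side. These 2 counts were not among the planned results, and the second pools the central and posterior regions, which were planned apart. Of the bright posterior probe sets 1 was above 0 and 1 below. The filter bears on the second count: hoxd10.L passed it through its higher wildtype reading, and hoxc10.L, with a ratio above 0, fell just under it. The median was 0.20 for group 3, -0.35 for the 5 probe sets of groups 4 to 8 and -0.24 for the 2 of groups 9 and 10, while the median of all bright probe sets was 0. Over all 9 bright Hox probe sets the median was -0.19. The medians rest on few probe sets, and their spread between embryos was not measured.

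The group 3 genes act at the level of the hindbrain and neck. hoxa3.S read 524.8 in the wildtype array and 580.4 in the array labelled depleted, a log2 ratio of 0.14. hoxd3.L read 286.1 and 344.8, a log2 ratio of 0.26. The first ratio is smaller than the technical SD and the second is close to it. In group 2, the most anterior group measured, the dim hoxa2.S read 45.7 and 70.8, a log2 ratio of 0.62, while its homeolog hoxa2.L read 39.8 and 37.7, a log2 ratio of -0.09. The homeologs thus differed in sign, at dim signals where probe sets of a gene differed with a pooled SD of 0.39. Copies of similar sequence can also share probes.

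The central genes, of groups 4 to 8, pattern the trunk. hoxb4.S read 174.3 and 120.3, a log2 ratio of -0.54, the lowest among members with both readings above the floor. hoxa7.L read 2337.3 and 1849.5, a log2 ratio of -0.35. These were 1.46-fold and 1.27-fold lower in the array labelled depleted. Both exceeded the technical SD. hoxa7.L lay within the 5th to 95th percentile of its signal bin. hoxb4.S lay at the edge of its bin, whose 5th percentile is also -0.54, and just below the 5th percentile of all bright probe sets, -0.53.

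The hoxb7 copies were lower in each of their 3 probe sets. The bright probe set of hoxb7.L read 221.0 and 173.7, a log2 ratio of -0.36, and its dim probe set read 40.9 and 34.9, a log2 ratio of -0.24. hoxb7.S read 81.1 and 58.1, a log2 ratio of -0.49. hoxb7 was thus the member gene with most readings on one side, although its copies may share signal. The 3 readings come from the same RNA samples and are no replicates of the condition.

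Of the trunk genes of cluster C, both bright members had small ratios. The bright probe set of hoxc6.S read 468.9 and 413.9, a log2 ratio of -0.19, and its dim probe set read 54.7 and 39.7, a log2 ratio of -0.47. hoxc8.S read 870.6 and 822.4, a log2 ratio of -0.09. Both bright ratios are smaller than the technical SD. A probe set named xhoxc8, by synonym and place the long-subgenome copy of hoxc8, fell outside the naming rule. It had a larger ratio, -0.92. The other central members were dim. hoxc5.L read 24.4 and was under the floor at 16.1, which gives at least 1.25-fold lower. The brighter probe set of hoxd8.L read 27.0 and 37.9, a log2 ratio of 0.48, while its other one, at 18.8 and 18.1, and hoxb5.S, at 15.4 and 13.9, gave no ratio.

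The posterior genes, of groups 9 to 13, pattern the lumbar level and the tail. The bright probe set of hoxd9 read 231.6 and 235.1, a log2 ratio of 0.01, and its dim one read 33.7 and 26.7, a log2 ratio of -0.34. hoxd10.L read 96.7 and 68.8, a log2 ratio of -0.50. Another group 10 gene went the other way: the dim hoxc10.L read 65.9 and 83.5, a log2 ratio of 0.33.

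Groups 11 to 13 had low signals in both arrays. Their 7 probe sets had signals of at most 47.4 in the wildtype array and at most 41.4 in the other. The 3 probe sets of hoxa11.S above the floor had log2 ratios from -0.25 to 0.51, and the other was under it. hoxc12.L read 47.4 and 37.5, and hoxd13.S read 47.2 and 41.4. The probe set of hoxa13.S read 23.0 in the wildtype array and 3.8 in the array labelled depleted, and since the second lies under the floor it was only at least 1.17-fold lower. hoxb9, at 48.6 and 43.2, was dim as well.

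With the dim probe sets added, the order was less clear. Of the 25 Hox probe sets with a ratio 18 were below 0 and 7 above, with a median of -0.20, where 53.7% of all probe sets above the floor were below 0. Most of the 25 were dim: of these 16 dim ones 12 were below 0, where 60.1% of all dim probe sets were. By region 3 of 4 anterior, 1 of 10 central and 3 of 11 posterior probe sets were above 0, where 46.3% of all were. Probe sets of the same gene are counted singly here: hoxb7 gave 3 of the central ones and hoxa11.S 3 of the posterior ones. Of the posterior ones 9 were dim, and 39.9% of all dim probe sets were above 0. Spearman's rho between the log2 ratio and the paralogous group was -0.37 over the 9 bright probe sets. It was -0.09 over the 23 above the floor in both arrays, which cover 18 genes. The probe sets share 2 arrays, and their mean signal also differed along the order, with a rho of -0.46 over the same 23. Over the 9 bright ones the log2 ratio followed mean signal more closely than the paralogous group, with a rho of 0.52. Over the 23 that rho was -0.06. By cluster, all 5 cluster B probe sets with a ratio and 5 of 6 of cluster C were below 0. Clusters A and D had 5 of 8 and 3 of 6 below 0, where 53.7% of all probe sets above the floor were. Of those of cluster B 3 were of hoxb7, and 2 of those of cluster C were of hoxc6.S. The anterior probe sets all lie in clusters A and D, so cluster and paralogous group cannot be told apart here.

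**Figure D3:**
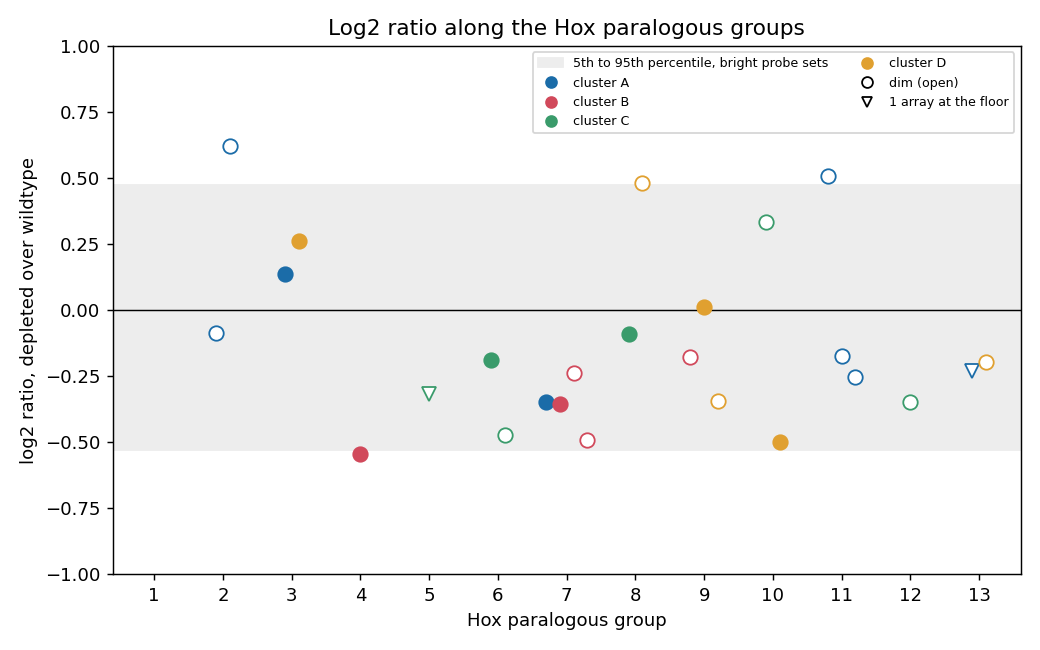
Log2 ratio of the array labelled depleted over the wildtype array for the 25 Hox probe sets with a ratio, by paralogous group, coloured by cluster; filled points are bright, open points dim, and triangles have 1 reading at the floor. The grey band spans the 5th to the 95th percentile of all bright probe sets, -0.53 to 0.47, and the filled points of group 3 lie above 0 while 6 of the 7 of groups 4 to 10 lie below it.

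The Cdx genes did not share the lower readings of the trunk Hox genes. Both probe sets of cdx1.S were higher in the array labelled depleted. The brighter one read 1115.4 and 1413.4, a log2 ratio of 0.33, and the other read 155.3 and 226.8, a log2 ratio of 0.54. These were 1.26-fold and 1.45-fold higher, both beyond the technical SD. The ratio of the brighter one lay below 0.40, the 95th percentile of its signal bin. The probe set of cdx4.L read 363.7 and 360.8, a log2 ratio of -0.02. The Cdx genes were therefore not shifted together.

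The TALE genes were mixed. pbx2.L read 1396.1 and 1509.9, a log2 ratio of 0.10, less than the technical SD. pknox1.L, a partner of Pbx, read 338.5 and 259.0, a log2 ratio of -0.40 or 1.32-fold lower. The Meis genes were all dim. The homeologs of meis3, which in the frog acts in hindbrain and spinal cord patterning, differed in sign: meis3.L read 43.6 and 33.9, a log2 ratio of -0.37, and meis3.S read 46.6 and 60.0, a log2 ratio of 0.36. meis2.L read 35.7 and 33.4. The probe sets of meis1.S, at 20.4 and 16.4 and at 2.6 and 2.0, were at or under the floor apart from the first reading.

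Genes measured by more than 1 probe set gave a direct view of how firm a sign is. Counting homeologs together, 7 genes had 2 or more probe sets above the floor in both arrays. For cdx1, hoxb7 and hoxc6 all of these had the same sign, and for hoxa2, hoxa11, hoxd9 and meis3 they did not. Each gene here except cdx1 included at least 1 dim probe set. Within a gene the largest range of log2 ratios was 0.76, for hoxa11.

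The signals that set Hox levels were examined through a list of Wnt, FGF and retinoic acid genes and related ligands. Of its 24 bright probe sets 1 was at least 2-fold higher, that of the morpholino target gdf3.S, and 0 were 2-fold lower. The median log2 ratio was 0.04. Of all bright probe sets 0.349% were 2-fold higher and 0.271% lower, which is also the background for the lists below. After gdf3.S the largest ratios were those of the Wnt ligand gene wnt5b.S at -0.71, the FGF receptor gene fgfr2.L at -0.70, whose other bright probe set read -0.18, and the Wnt ligand gene wnt11b.L at 0.43. The wnt5b.S probe set, at 94.2 and 58.0, and the first one of fgfr2.L, at 104.8 and 65.0, passed the filter only through their higher wildtype readings. The posterior Wnt ligand gene wnt3a.S, which acts upstream of Cdx genes, read 349.1 and 440.5, a log2 ratio of 0.33. Another Wnt ligand gene, wnt8a.L, went the other way, at 952.8 and 832.2, a log2 ratio of -0.20. The retinoic acid degrading enzyme cyp26a1 was higher in both copies, at 0.31 for cyp26a1.L and 0.28 for cyp26a1.S, while the bright probe set of the retinoic acid synthesis gene aldh1a2.L read 0.07. The retinoic acid genes rdh10.S and rdh10.L of this list were lower, at -0.26 and -0.15. Of the probe sets named here, those past 1.5-fold were those of gdf3.S, wnt5b.S and 1 of the fgfr2.L pair.

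Regulators that act with or on Hox genes had no bright probe set past 2-fold. The transcription factor list had a median log2 ratio of 0.09 over 14 bright probe sets. Of these 10 were above 0, where 50% of all bright probe sets were. They include tbxt.S, msgn1.L and tbx6.L, which are counted again in the somite and presomitic list below. Its largest ratios were those of the RNA-binding protein gene lin28b.S at -0.45, the geminin gene gmnn.S at 0.35, the insulator protein gene ctcf.L at -0.27 and sall1.L at 0.22. Other bright probe sets did not repeat these values: ctcf.L read 0.08 and sall1.L 0.01 elsewhere, and the homeolog gmnn.L read -0.16. Polycomb and trithorax genes, which keep Hox genes silent or active, had a median of -0.02 over 11 bright probe sets. Of these 9 were below 0, where 50% of all bright probe sets were, but several of the 9 read only -0.02 to -0.01. The Polycomb ubiquitin ligase gene ring1.L read 109.0 and 73.2, a log2 ratio of -0.58, and passed the filter only through its higher wildtype reading. The next in size was eed.L at -0.18, while its homeolog eed.S read 0.02.

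Other homeobox genes of the ANTP and TALE classes were divided. Of 13 bright probe sets 7 were above 0 and 6 below, with a median log2 ratio of 0.13 and none past 2-fold. The largest were the epidermal genes dlx3.L at 0.63 and dlx3.S at 0.52, followed by the TALE repressor gene tgif1.S at 0.44. The probe set of evx1.L, whose gene borders the Hox cluster and is used in the tail, read 85.3 and 112.3, a log2 ratio of 0.39.

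Markers of the tissues in the pieces also differed between the arrays, and they are given here because Hox genes are used in several of them. For the counts of all these marker lists, 50% of all bright probe sets lay on each side of 0, and 0.349% were 2-fold higher and 0.271% lower. Some probe sets are in several lists, so the lists are not separate evidence: dlx3.L and dlx3.S are also among the other homeobox genes, and tfap2a.L is in the epidermal and neural crest lists. Of 15 bright probe sets of neural genes 10 were below 0, with a median log2 ratio of -0.09, and the summed signal of all 35 neural probe sets was 9945 in the wildtype array and 9228 in the array labelled depleted. Of 9 bright probe sets of notochord genes 8 were below 0, with a median of -0.20, and the 10 on the array summed to 3846 and 3689. Of 15 bright probe sets of somite and presomitic genes 10 were above 0, with a median of 0.07, and sums of 13914 and 13894 over 20 probe sets. The largest ratio of this list was negative: the segment border gene ripply2.1.S read 341.8 and 139.6, a log2 ratio of -1.30 and past 2-fold. The segmentation genes mespa.S and mespa.L read -0.68 and -0.43, while a probe set of pax3.L read 0.43. Other bright probe sets read 0.26 for pax3.L, -0.33 for pax3.S and 0.07 for ripply2.2.S. The part of neural or notochord tissue in the lower Hox readings was not tested.

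Epidermal genes had mostly ratios above 0, but not all. Of their 15 bright probe sets 11 were above 0, with a median log2 ratio of 0.24. The largest ratio, 0.95 for cdh1.S at 52.0 and 101.2, passed the filter only through the array where it is high. All 18 on the array summed to 41445 and 43066, and tp63.L was under the floor in both. The brightest ones, which weigh most in these sums, were not all higher: itln1.L read 8244.9 and 7025.5, and the brightest probe set of krt70.S 13889.6 and 13657.4. The other bright krt70 probe sets were above 0. The copies of krt12.4 differed in sign, at 0.48 for krt12.4.L and -0.15 for krt12.4.S. The 6 bright probe sets of endoderm genes were above 0, 2 of them past 2-fold, with sums of 2209 and 2564 over all 15 probe sets. The sox17a.L probe set at 1.39 and those of sox17b.1.S at 1.48 and 0.80 made up the upper part, and 2 of these passed the filter only through the array where they are high. The other 3 ran from 0.04 to 0.13. Another 5 probe sets of this list, those of gata4 included, were at or under the floor in both arrays. Its dim probe sets read -0.28 for gata6.S, -0.02 for gata6.L, -0.09 for vegt.S and 0.29 for sox17a.S. Neural crest genes had 3 bright probe sets, 2 above 0, with sums of 501.8 and 557.9 over 7. The 26 probe sets of forebrain and midbrain genes, 16 of them under the floor in both arrays, summed to 563.3 and 587.3. The part of epidermis or endoderm in the higher cdx1.S and group 3 readings was not tested.

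**Figure D4:**
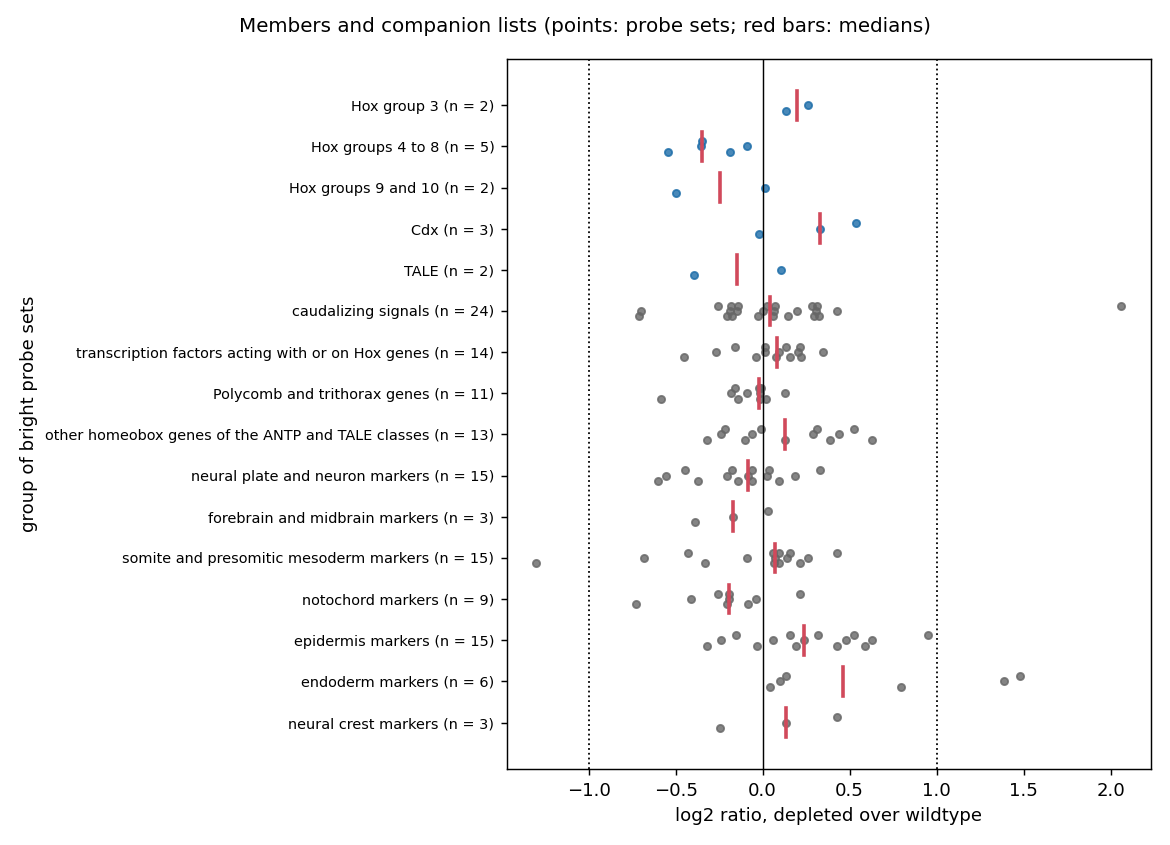
Log2 ratio of the array labelled depleted over the wildtype array for bright probe sets of the members, in blue, and of the companion and marker lists, in grey, with red bars at the medians and dotted lines at 2-fold. Hox groups 4 to 8 have a median of -0.35, and the median of notochord genes is -0.20 and that of epidermal genes 0.24. The Cdx median of 0.33 rests on 3 probe sets, of which the 2 of cdx1.S lie above 0 and that of cdx4.L at -0.02.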

How the data were processed

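The authors deposited MAS5 probe set intensities, which are linear, per the submitters' processing notes. MAS5 is noisy at low signals. Its version and scaling are not stated by the labels. RNA was extracted with Trizol and 6 µg was labelled, per the labels' protocols. Groups were taken from array titles.

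Of 15611 probe sets, 120 controls were left out, and 9304 had 1 symbol in the platform annotation, 195 several and 5992 none. Entrez IDs matched 27 of the 29 member genes to the RefSeq table of Xenopus_laevis_v10.1, with the same symbols. Signals under 19.7, the 25th percentile, were raised to this floor before log2, and ratios were centred on the median of bright probe sets, a shift of 0.0089. With 1 array a group, calls used a fixed size of 2-fold. The naming rule took bright members, dim members with repeated or homeolog probe sets, the target gdf3, marker genes and up to 4 probe sets per list. The other dim members, hoxa2 with both homeologs, xhoxc8, egr2.L, hesx1, gmnn.L and eed.S were named after their values were seen. So were wnt3a.S, wnt8a.L, cyp26a1, aldh1a2.L, rdh10, gata6, vegt.S, itln1.L and krt70. Members and lists were chosen with earlier results of these data known. Alternatives changed the floor (none, the 40th percentile, an added constant), the scaling (no centring, quantile, loess), the filter (none, the 75th percentile), the threshold (1.5-fold, 3-fold) and the probe sets counted. The procedure was tested on simulated data with Python (3.11.15), statsmodels (0.14.6), scipy (1.17.1), pandas (2.3.3) and numpy (2.4.6), and matplotlib (3.10.9) drew the figures. No sequences were used here.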

Additional observations from a re-analysis of the deposited data

How the results depend on the processing

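The 14 bright members kept their sign in each alternative that measured them, and 0 of 107 recomputed ratios moved by more than the technical SD of 0.23. Of these 51 equal the first ratio exactly, since a floor or filter does not alter a bright ratio, and the other 56 moved by at most 0.096. The member counts past 2-fold stayed at 0 in both directions with another floor, an added constant, no centring, quantile normalization, loess and either filter. The other floors were tried on the 14 bright members only, whose readings lie above them, so they could not change these counts. The dim hoxa13.S, at 23.0 and 3.8, was not in that check. The number of Hox probe sets of groups 4 to 13 below 0 was 6, as 5 of 5 central and 1 of 2 posterior bright ones, where 50% of all bright probe sets were. With no signal filter, which admits more probe sets, it was 17, as 9 of 10 central and 8 of 11 posterior ones. Over all probe sets above the floor 53.7% were below 0, and over the dim ones, which this setting admits, 60.1%. The filter at the 75th percentile left only those of hoxa7.L, hoxc6.S and hoxc8.S in these groups, and all 3 were below 0. The median log2 ratio of bright Hox probe sets ranged from -0.27, with the xhoxc8 probe set added after the data were seen, to -0.09, under the stricter filter. The Cdx median ranged from 0.16 to 0.35 and rests on at most 3 probe sets. The 0.16 came under the stricter filter, which left out the dimmer probe set of cdx1.S. MAS5 itself could not be rerun from the deposited signals. No paired analysis was possible because there was a single array per condition, which also left no replicate to omit. Signals near the floor limit what can be said of groups 11 to 13 and the Meis genes.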

Other observations

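A probe set named xhoxc8 fell outside the naming rule for members and was singled out after its values were seen. The RefSeq table gives Hoxc8 as a synonym of this gene and places it on chromosome 2L between hoxc6.L and hoxc9.L. Its signal was 390.5 in the wildtype array and 207.5 in the array labelled depleted. The log2 ratio was -0.92, or 1.89-fold lower, larger in size than that of any member with both readings above the floor. By that synonym and place xhoxc8 is the long-subgenome copy of hoxc8. The probe set of hoxc8.S, the other copy, read -0.09 on the same scale. The difference between these probe sets has no replicate check and was not tested.

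A probe set that names both homeologs of hoxa2 was also outside the rule. It read 115.9 and 131.1, a log2 ratio of 0.17, between the values of 0.62 for the dim hoxa2.S probe set and -0.09 for the dim hoxa2.L probe set.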
